A study of Mus musculus with 15 samples.

Results

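The 10 columns of an RNA-seq count table that carry the label Olfr2+ fell into a deeply counted set and a shallowly counted set, and this comparison describes what differed between them. The division was set at 60 M counts per column, where 1 M is 1000000 counts. Of the 15 columns of the series, 7 Olfr2+ columns lay above it (2A, 2B, 2C, 2D, 3A, 3B and 3C, with totals of 76.0 to 95.6 M and a median of 85.9 M). The other 3 Olfr2+ columns lay below it, with 33.8 M in 3D, 37.6 M in 4A and 29.9 M in 4B. The column nearest the division from above was 3C and the nearest from below was 4A. The column totals chose the sides, so the totals are a description, and the gene values below, which come from the same columns, are given without p-values.

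The sorted macrophage columns all came from the aorta of female Apoe-/- mice (labelled "Apoe dko") kept for 4 weeks on a high fat diet, called WD in the protocol. Cell suspensions from the aortas of 4 mice were pooled, cells were sorted as F4/80+ CD64+ macrophages with or without surface Olfr2, and 100 to 200 cells were processed with Smart-Seq2, a full-length cDNA method with 18 cycles of amplification. The protocol gives 3 samples per group and technical replicates sorted from pooled suspensions, so the letters after a sample number are read here as repeats, and the spread between columns may be technical. Both sides share the genotype, diet, sort and Olfr2+ label. They do not share all sample numbers: sample 2 is only deep, sample 4 only shallow, and sample 3 is on both sides. Columns 3C (deep) and 3D (shallow) also carry the same second library name. The 5 Olfr2- columns, with 30.5 to 53.2 M counts, all lay below the division and are given as values beside the Olfr2+ columns.

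Aortic macrophages take up lipoprotein and dying cells, degrade them in lysosomes, and present peptides on MHC class II. They lie among fibroblasts of the adventitia, which secrete collagen and proteoglycans, and beside B cells, plasma cells and neutrophils that can enter the diseased wall. Olfr2 is an odorant receptor, a G protein-coupled receptor that senses medium-chain aldehydes. In sorted bulk RNA, a lower level of a cell type's genes can mean fewer cells of that type or less of that RNA per cell, and these cannot be told apart here.

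The transcript of the receptor used for sorting was near the limit of detection on both sides. Olfr2 had 0 counts in 5 of the 7 deep columns, 1 count in 2A and 2 counts in 3C. It had 7 counts in 3D, 1 in 4A and 7 in 4B, and 0 to 76 counts in the Olfr2- columns. A count of 0 allows up to 3 counts, which is 0.0314 to 0.0388 CPM (counts for each 1000000 in the column) in those deep columns, for counting error only. No fold change is given for it. The transcript of Adgre1, which encodes F4/80, was present in every Olfr2+ column, at 123 to 312 CPM in the deep columns (median 210) against 84.3, 46.0 and 54.6 CPM in 3D, 4A and 4B. Fcgr1, which encodes CD64, was at 3.43, 0.772 and 1.24 CPM in the shallow columns. In the deep columns it ranged from 0.544 to 103 CPM, with 2A at 1.40 and 3B at 0.544, so the deep columns overlapped the shallow ones for this gene of the sort gate. Apoe itself was counted at 2962 to 7461 CPM in the deep columns and at 543, 354 and 237 CPM in 3D, 4A and 4B. Counts per gene do not show which exons the reads came from, so these values do not check the deletion.

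The deeper columns detected fewer genes. Deep columns had counts for 17609 to 26927 genes (median 19595), and the shallow columns for 31227, 25612 and 29992. At a common depth of 29.9 M counts the expected numbers were 15342 to 22479 (median 16623) in the deep columns and 30915, 25043 and 29992 in 3D, 4A and 4B, with no overlap. The 10 most abundant genes of a column took 9.54 to 13.2% of the counts in the deep columns and 19.7 to 21.2% in the shallow ones. Protein-coding genes took 94.6 to 97.5% of deep counts and 78.5 to 80.4% of shallow counts. Much of what the shallow columns held beyond that was mitochondrial ribosomal RNA (6.63 to 11.04%, against 0.756 to 3.45%), nuclear ribosomal RNA (1.52 to 3.56%, against 0.0264 to 0.174%), immunoglobulin constant genes (3.76 to 6.09%, against 0.0239 to 0.539%) and long intergenic noncoding RNA (1.95 to 2.67%, against 0.566 to 0.907%). Features known only by gene model names took 3.34 to 3.83% of shallow and 1.24 to 1.63% of deep counts. In the 5 Olfr2- columns, protein-coding genes took 79.5 to 85.6% of counts, mitochondrial ribosomal RNA 5.89 to 9.57% and immunoglobulin constant genes 2.35 to 4.80%.

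**Figure D1:**
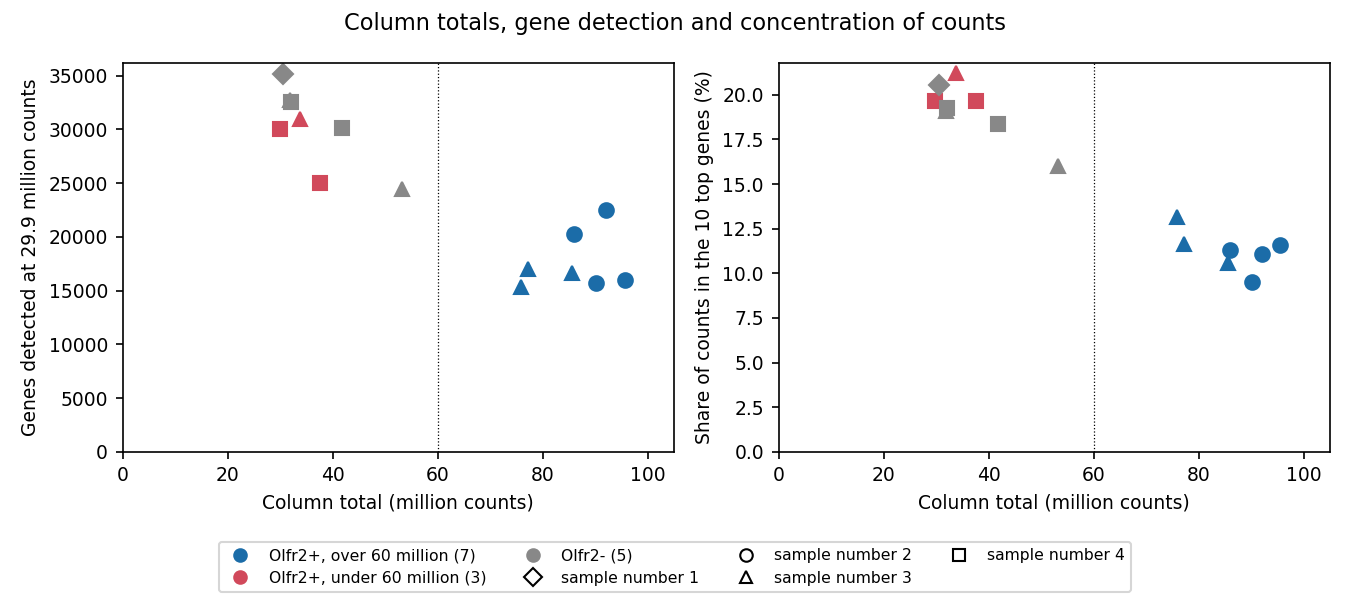
Each point is a column, with its column total in M counts on the x axis and, on the y axes, the number of genes expected at 29.9 M counts (left) and the percent of counts in its 10 most abundant genes (right); colour gives the side, shape the sample number, and the dotted line the division at 60 M. The 7 deep columns lie below the 3 shallow columns in both panels (at most 22479 genes against at least 25043, and at most 13.2% against at least 19.7%).

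Across genes the columns of a side resembled each other more than those of the other side. Pearson correlations of log2(CPM + 1) over the tested genes had a median of 0.515 among deep columns (0.437 to 0.642, 21 pairs), 0.642 to 0.654 among the 3 shallow columns, and a median of 0.380 between the sides (0.339 to 0.422, 21 pairs). Between shallow Olfr2+ and Olfr2- columns the median was 0.642 (15 pairs). Sample number 3 did not bridge the sides: its deep columns 3A, 3B and 3C correlated with 3D at 0.339 to 0.396. These correlations are across genes, which are not independent, and describe the columns only. Deep columns also differed among themselves. Columns 2A and 2C detected the most genes of that side (24945 and 26927) and held the fewest genes at 10 CPM or more (4767 and 4449, against 6142 to 8272 in the other 5).

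Among 8806 genes with at least 10 CPM in at least 3 of the 10 columns, 624 (7.09%) were higher in every deep column than in every shallow column and 453 (5.14%) were lower in every deep column, together 12.2% of the genes tested. Counts of list members without overlap, given below, are to be read beside these shares. The genes higher in the deep columns took 32.6% of the counts of the median deep column and 5.30% of those of the median shallow column. Those lower in the deep columns took 6.53% and 37.3%. Of the 624 higher genes 98.4% were protein-coding, and of the 453 lower genes 82.8%, against 96.8% of all genes tested. A gene could enter the test through either side alone: 4890 did so through deep columns and 239 through shallow columns, so the number of higher genes cannot be read against the number of lower ones. The same limit holds within each gene list below, where members could enter through the deep columns alone.

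For the spread between columns, edgeR's quasi-likelihood fit called 510 genes higher (5.79%) and 245 lower (2.78%) at an adjusted p of 0.05, on column totals with no further scaling. The median log2 fold change over all genes tested was 0.68 on this scale. With TMM factors, which rest on the bulk of genes, that median was 0.38 and the calls were 384 higher and 318 lower. With RLE factors they were 166 higher and 199 lower. Of the genes without overlap, 409 of the higher and 204 of the lower were also called. Leaving out 3D gave 313 higher calls and leaving out 4B gave 331. Leaving out 4A gave 154 lower calls and leaving out 4B gave 158. The fit and its standard errors treat the 10 columns as independent, although letters are read as repeats of a sample number. With counts summed per sample number the calls were 287 higher and 85 lower. With sample number as a replicate block they were 119 and 44, of which 112 and 42 were among the 510 and 245. The sides were chosen on these columns and sample numbers differ between them, so nothing is read from these counts.

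**Figure D2:**
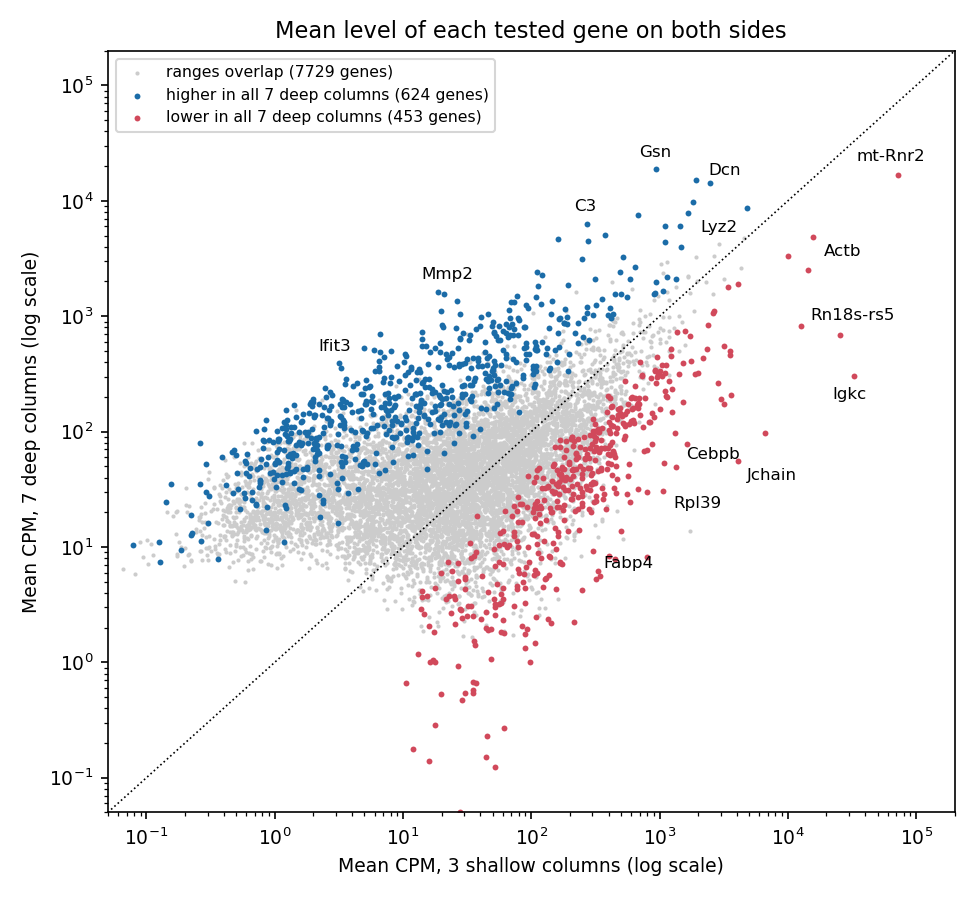
Each point is 1 of the 8806 tested genes, with its mean CPM over the 3 shallow columns (x axis) and over the 7 deep columns (y axis), both on log scales; values under 0.05 are drawn at 0.05 and the dotted line marks equal levels. The 624 genes above every shallow column in all deep columns (blue) include Gsn, Dcn, C3 and Mmp2, and the 453 below (red) include Igkc, Jchain, Rn18s-rs5 and Rpl39.

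Genes of fibroblasts and of secreted matrix marked the deep columns. The 10 fibroblast markers together took 4.67 to 6.41% of deep counts (median 5.29%) and 0.357, 0.454 and 0.607% of the counts of 3D, 4A and 4B, an 11.3-fold difference of the means. In the Olfr2- columns they took 0.301 to 0.487%. Of these 10 markers, 8 were higher without overlap and none lower, with a median log2 fold change of 3.37 against 0.68 for all genes tested. Gsn, which encodes the actin-severing protein gelsolin, was the higher gene with the largest difference in mean CPM. It stood at 13304 to 31180 CPM in the deep columns (median 18444) and at 946, 787 and 1091 CPM in 3D, 4A and 4B (log2 4.32 ± 0.30 SE). Dcn, the collagen-binding proteoglycan decorin, was at 10164 to 18523 CPM (median 15518) against 1213, 1684 and 2830 CPM (8.00-fold). Neither gene's deep range came near its shallow range.

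The 3 collagen genes among the fibroblast markers were higher without overlap. Col1a2 was at 4898 to 10489 CPM (median 8277) in the deep columns and at 500, 489 and 1048 CPM in 3D, 4A and 4B. Col3a1 was at 3425 to 6246 CPM (median 4066) against 70.0, 173 and 594 CPM, and Col1a1 at 2280 to 4184 CPM (median 3068) against 166, 315 and 260 CPM. Lum, Dpt and Serpinf1 were the other markers without overlap. Pdgfra, the receptor that defines many fibroblasts, was not: it was at 90.7 to 729 CPM in the deep columns and at 8.18, 460 and 10.6 CPM in 3D, 4A and 4B, where 4A lay within the deep range. Mfap5 overlapped too, with 341 CPM in 3D.

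Matrix proteins and their enzymes were higher as well. Of 25 such genes tested, 19 were higher without overlap and none lower, with a median log2 fold change of 4.24, and together they took 1.95 to 3.36% of deep and 0.228 to 0.425% of shallow counts. In the Olfr2- columns they took 0.269 to 0.369%. Mmp2, a gelatinase, was at 720 to 2349 CPM (median 1744) against 17.1, 22.5 and 16.8 CPM (86.3-fold, log2 6.43 ± 0.57 SE). Fmod, a small collagen-binding proteoglycan, was at 239 to 663 CPM (median 387) against 2.87, 6.52 and 22.5 CPM. Fbn1, the microfibril protein fibrillin, was at 336 to 815 CPM (median 550) against 18.8, 15.3 and 8.03 CPM. Neither Fmod nor Fbn1 reached 10 CPM in all 3 shallow columns, so both entered the test through the deep columns alone. Fn1, Mfap4, Col5a1, Bmp1, Loxl1 and Postn were the 6 whose ranges overlapped. The elastic fibre gene Fbln5 was at 222 to 956 CPM (median 686) against 7.21, 23.8 and 11.1 CPM. Of the receptors on this side, Il11ra1, which binds interleukin-11, was at 486 to 1402 CPM (median 802) against 23.2, 23.4 and 13.5 CPM, and the Wnt receptor gene Fzd4 at 127 to 1071 CPM (median 263) against 3.93, 2.95 and 23.7 CPM. Other secreted proteins among the largest folds were Aebp1 (1000 to 2772 CPM against 18.5 to 23.0), the plasma-type glutathione peroxidase Gpx3 (877 to 1427 CPM against 12.5 to 33.1) and the Wnt-binding proteins Sfrp2 (800 to 2726 CPM against 13.3 to 36.1) and Sfrp4 (106 to 1320 CPM against 7.83 to 35.3).

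Adventitial progenitor markers were higher in 7 of 10 without overlap and lower in none, with a median log2 fold change of 3.57. Their sum was 0.331 to 0.734% of deep, 0.0334 to 0.0681% of shallow and 0.0436 to 0.100% of Olfr2- counts. Pi16 was at 172 to 1467 CPM in the deep columns (median 885) and at 15.4, 51.0 and 11.4 CPM in 3D, 4A and 4B. Cd248, the membrane protein endosialin, was at 121 to 574 CPM (median 235) against 3.49, 5.91 and 3.85 CPM. Dpp4, Clec3b and Sema3c had overlapping ranges. Among the genes with the largest differences in mean CPM, C3, the central complement component, was at 5349 to 7435 CPM (median 6362) against 195, 245 and 372 CPM (23.3-fold), and Serping1, the C1 inhibitor, at 3329 to 5811 CPM (median 4567) against 51.4, 263 and 170 CPM (29.2-fold).

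Macrophage genes did not all lie on a single side. The 16 identity genes took 0.975 to 1.89% of deep counts (median 1.37%) and 0.704, 0.771 and 1.05% of the counts of 3D, 4A and 4B, and these sums overlapped. In the Olfr2- columns they took 0.356 to 1.15%. Among the 16, 4 were higher without overlap, 2 were lower and 10 overlapped, with a median log2 fold change of 0.71 that was close to the 0.68 of all genes tested. The higher genes were Lyz2, which encodes lysozyme, and the 3 chains of the complement recognition protein C1q. Lyz2 was at 4740 to 10335 CPM (median 7285) in the deep columns and at 1320, 1523 and 2135 CPM in 3D, 4A and 4B. In the means it held 7783 of 13950 CPM of the identity sum in the deep columns. In the shallow columns it held 1659 of 8403 CPM, so the higher mean sum of the deep columns rested on Lyz2. C1qb was at 347 to 1450 CPM (median 1043) against 177, 17.8 and 9.04 CPM, and C1qa and C1qc were 14.5-fold and 11.1-fold higher in the means. Without 3D the C1qb fold went from 14.3 to 72.5, and without 4A the C1qa fold was 25.6.

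The lower genes were the Fc receptor gamma chain and an integrin. Fcer1g was at 238 to 517 CPM in the deep columns (median 420) and at 859, 1184 and 1100 CPM in 3D, 4A and 4B. Itgam, which encodes CD11b, was at 24.7 to 132 CPM (median 52.5) against 367, 347 and 298 CPM. Csf1r, the receptor for the growth factor that macrophages depend on, was at 221 to 987 CPM (median 532) against 312, 1220 and 284 CPM, so both sides held it at overlapping levels. Fibroblast markers took more of every deep column than the macrophage identity genes did (5.29 against 1.37% in the median column), while in 3D, 4A and 4B they took less (0.357 against 0.704%, 0.454 against 0.771% and 0.607 against 1.05%). These sums compare reads, not cells, since the genes differ in length and level.

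Markers of resident-like arterial macrophages were higher in the deep columns in sum, at 0.386 to 0.592% against 0.0960 to 0.131% (4.59-fold), and 13 of the 17 were tested. Of these 13, Gas6, Fcgrt and Igf1 were higher without overlap, none was lower and 10 overlapped. Fibroblast markers were 11.3-fold higher in the same columns, and which cells carried the transcripts of these 3 genes was not tested. Gas6, a ligand that bridges dying cells to phagocytic receptors, was at 760 to 1504 CPM (median 1153) against 88.3, 87.7 and 23.9 CPM. Lyve1, a hyaluronan receptor that is a defining marker of these cells, was at or below 0.140 CPM in all 4 columns of sample 2 and at 39.9, 153 and 102 CPM in 3A, 3B and 3C, against 1.12, 0.985 and 1.04 CPM in 3D, 4A and 4B. Folr2 was at 24.96 to 112 CPM in 6 deep columns and at 0.665 CPM in 2D, against 1.24, 0.745 and 1.10 CPM in the shallow columns.

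Foamy macrophage markers, the genes of lipid-laden macrophages, were higher in sum (0.800 to 1.27% against 0.437 to 0.570%), and 18 of 20 were tested. Without overlap, Fabp5, Ctsb, Ctsl and Lipa were higher and Fabp4 was lower. Ctsb, Ctsd and Ctsl of this list are also counted among the lysosomal genes below. Which cells carried the transcripts of this list was not tested. The fatty acid-binding protein gene Fabp4 was at 0.792 to 26.3 CPM in the deep columns (median 9.65) and at 419, 177 and 311 CPM in 3D, 4A and 4B, which made it 32.9-fold higher in the shallow means. Its relative Fabp5 went the other way at low levels, with 3.01 to 40.3 CPM against 0.739, 1.04 and 0.770 CPM. Gpnmb, a membrane glycoprotein of foamy cells, was at 145 to 481 CPM (median 434) against 7.68, 14.9 and 147 CPM, so that 4B reached the lowest deep column. Spp1, which encodes osteopontin, overlapped widely (0.369 to 76.1 CPM against 20.4, 5.70 and 2.21 CPM).

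Monocyte markers took 0.477 to 0.605% of deep and 0.743, 0.705 and 0.660% of shallow counts. Of 15 tested, 3 were lower without overlap (Plac8, Ace and S100a4) and 1 was higher (Ly6c1), against 5.14% and 7.09% of all genes tested. Plac8 was at 87.6 to 313 CPM (median 121) against 966, 1966 and 827 CPM, and S100a4, a calcium-binding protein, at 17.6 to 135 CPM (median 53.0) against 711, 685 and 890 CPM. Ly6c1, which endothelial cells and other stromal cells also express, was at 33.04 to 466 CPM (median 229) against 5.38, 5.51 and 20.1 CPM. The closely related Ly6c2 of classical monocytes overlapped at 2.60 to 202 CPM against 85.0, 266 and 410 CPM, and reads of such near copies may be split between the genes. Ccr2, the chemokine receptor of monocytes, was at 188 to 326 CPM against 902, 272 and 304 CPM.

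Immunoglobulin genes were lower in the deep columns, 41.5-fold in the means of their sums. The sum was 0.0242 to 0.557% of deep counts (median 0.0482%) and 3.79, 4.99 and 6.11% of the counts of 3D, 4A and 4B, and 2.36 to 4.80% in the Olfr2- columns. Among 395 immunoglobulin genes counted, 9 were tested, with 6 lower without overlap and none higher. Igkc, the kappa light chain constant gene, was at 90.3 to 997 CPM in the deep columns (median 200) and at 24889, 33252 and 39601 CPM in 3D, 4A and 4B, which is 107-fold (log2 -6.74 ± 0.49 SE). Ighm, the heavy chain of IgM, was at 81.9 to 4342 CPM (median 243) against 10109, 12358 and 15284 CPM. Column 3A held the highest deep value of both, and without it the Igkc fold was 173 and the Ighm fold went from 15.3 to 53.9. The log2 ratio of the mean sums was -5.37 with all columns and -6.73 without 3A.

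Markers of the cells that make antibody were mixed. Of 6 plasma cell markers tested 2 were lower in the deep columns without overlap, none was higher and 4 overlapped, and their sum was 0.00624 to 0.0820% of deep counts against 0.232, 0.459 and 0.698% in 3D, 4A and 4B. The summed B cell markers overlapped, at 1.49 to 234 CPM in the deep columns and 367, 337 and 68.3 CPM in 3D, 4A and 4B. Jchain, which joins IgM and IgA subunits, was at 16.0 to 156 CPM (median 46.1) against 1852, 3786 and 6722 CPM (74.5-fold). It made up most of the plasma cell sums of 3D, 4A and 4B, which were 2316, 4595 and 6981 CPM. The lack of overlap in this sum therefore rested on Jchain. Mzb1, an endoplasmic reticulum cofactor of antibody secretion, was at 0.228 to 4.74 CPM against 27.7, 226 and 13.4 CPM. Of the 12 B cell markers only Ms4a1, Pax5 and Bank1 were tested, and Ms4a1 (CD20) alone had no overlap, at 0.0815 to 4.63 CPM against 186, 120 and 14.6 CPM. Sdc1 and Xbp1 were among the plasma cell markers that overlapped. Whether cells or free RNA carried these transcripts was not tested.

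Neutrophil markers were lower in sum in the deep columns (0.0142 to 0.0535% against 0.0797 to 0.0996%). Of 8 tested, S100a9, Cxcr2 and Hdc were lower without overlap. S100a9 was at 53.2 to 204 CPM (median 87.3) against 553, 507 and 231 CPM, whereas S100a8, its partner in the calprotectin dimer, overlapped (9.28 to 153 CPM against 86.1, 115 and 385 CPM). None of the 11 dendritic cell, 4 T and NK cell, 3 smooth muscle, 2 pericyte, 2 endothelial or 1 adipocyte markers tested was without overlap. No mast cell, lymphatic endothelial, mesothelial or erythroid marker reached the level for testing, and Ccl21a, of the lymphatic list, was at 0 in all 10 columns. The summed markers of T and NK cells were at 45.8 to 156 CPM in the deep and 54.1 to 328 CPM in the shallow columns, those of smooth muscle at 6.17 to 204 CPM and 3.65 to 16.4 CPM, and those of dendritic cells at 115 to 788 CPM and 696 to 2771 CPM. The 8 mast cell markers summed to 0.200 to 1.23 CPM in the deep columns and to 4.49, 121 and 26.1 CPM in 3D, 4A and 4B. Mbp, a myelin protein gene, was the one neural marker without overlap, at 1.09 to 72.0 CPM against 312, 145 and 152 CPM. Single columns carried some of these genes: Pecam1, an endothelial adhesion molecule, was at 690 CPM in 3B and at 0.488 to 4.00 CPM in the other 6 deep columns, against 47.3, 32.8 and 8.70 CPM in 3D, 4A and 4B.

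**Figure D3:**
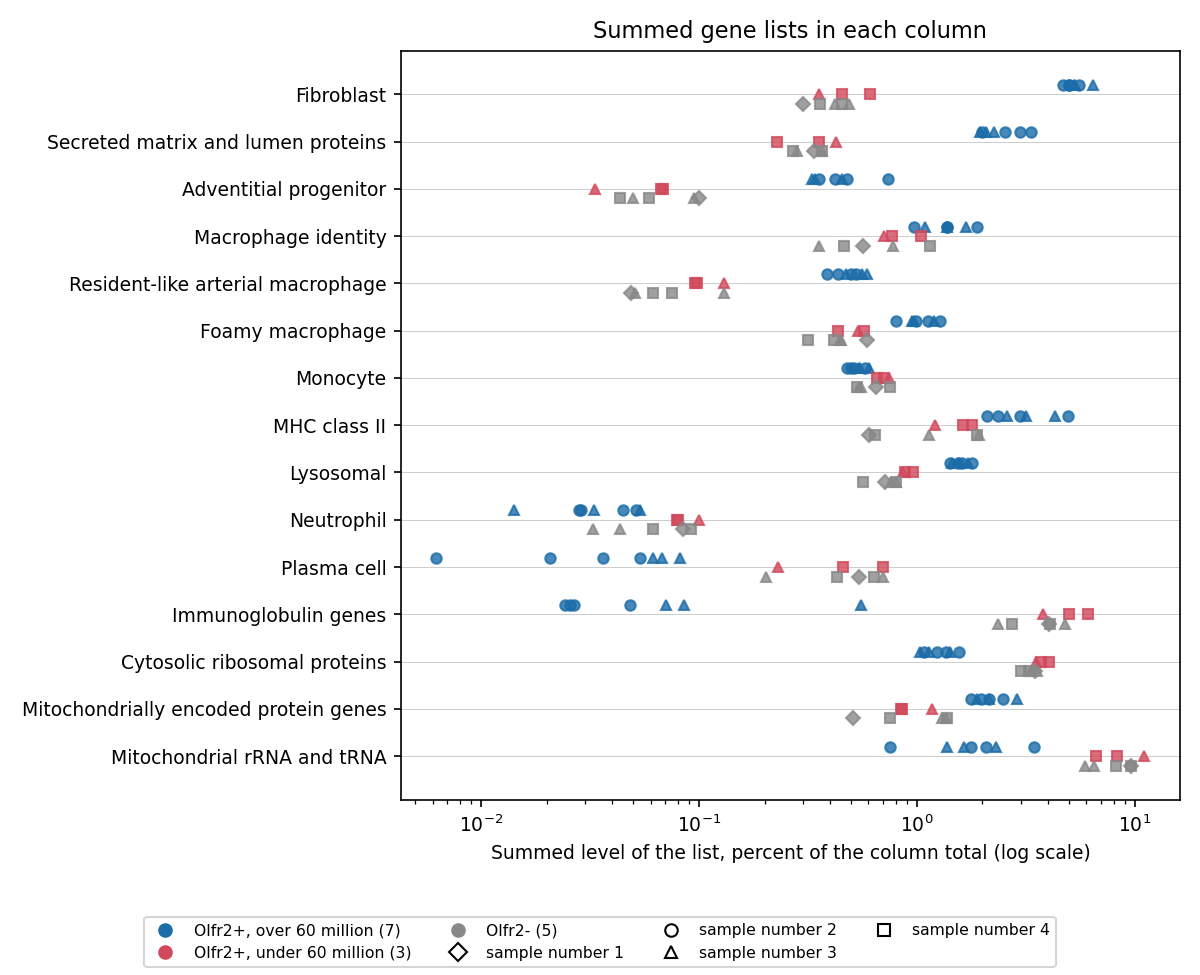
Summed level of 15 gene lists as percent of the column total (x axis, log scale) in each of the 15 columns, with colour for the side or the Olfr2- label and shape for the sample number. Fibroblast markers lie between 4.67 and 6.41% in the deep columns and between 0.357 and 0.607% in the shallow ones, immunoglobulin genes lie at 0.0242 to 0.557% and 3.79 to 6.11%, and the macrophage identity sums overlap.

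MHC class II genes were higher in sum in the deep columns (2.09 to 4.93% against 1.21, 1.78 and 1.63%). This rested on 2 of 9 genes: Cd74, the invariant chain that escorts class II molecules, was at 6534 to 27956 CPM (median 9448) against 1891, 3092 and 2381 CPM, and H2-Ab1 at 6162 to 10079 CPM (median 9314) against 3826, 5458 and 5039 CPM. H2-Aa, the alpha chain that pairs with H2-Ab1, overlapped at 3261 to 6006 CPM against 3315, 5385 and 4904 CPM. Its log2 fold change of 0.07 turned to -0.14 with TMM factors.

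Lysosomal genes were higher without overlap in 10 of 19 and lower in 1 (Npc2), taking 1.42 to 1.79% of deep and 0.867 to 0.956% of shallow counts. The cathepsin gene Ctsl was at 1096 to 2515 CPM (median 1451) against 518, 443 and 380 CPM, and Grn, which encodes progranulin, at 826 to 1375 CPM (median 1235) against 155, 162 and 229 CPM. Ctss, another cathepsin gene, overlapped (1093 to 2122 CPM against 2120, 1371 and 4358 CPM). Glycolytic genes were higher without overlap in 6 of 15, among them Aldoa (267 to 1227 CPM against 124, 225 and 64.2 CPM) and Gapdh (132 to 586 CPM, against at most 78.8 CPM in the shallow columns). Hk2, the first enzyme of the pathway, was the exception at 6.91 to 78.3 CPM against 149, 871 and 682 CPM.

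Immediate early genes, which cell handling and digestion of tissue induce, were mixed, with 6 of 18 higher and 2 lower without overlap. Fos was at 5174 to 6827 CPM (median 6253) against 1145, 1077 and 2072 CPM, and Jun at 988 to 2180 CPM (median 1074) against 204, 357 and 260 CPM. Jund, of the same family, was at 155 to 628 CPM (median 253) against 2390, 2030 and 1563 CPM. Heat shock genes were mixed too: Dnajb1 was at 438 to 1015 CPM against 45.9, 89.1 and 17.6 CPM, and Hspa1b at 34.03 to 139 CPM against 440, 1215 and 750 CPM. The near-identical Hspa1a overlapped (303 to 659 CPM against 642, 455 and 457 CPM), and the split of reads between these copies is uncertain.

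Interferon-response genes were higher without overlap in 4 of 19 (Ifit3, Oas1a, Rtp4 and Cxcl10) and lower in none. Ifit3 was at 196 to 685 CPM (median 303) against 3.16, 3.99 and 2.41 CPM, while its neighbour in the family Ifit1 overlapped (28.5 to 506 CPM against 8.51, 355 and 6.16 CPM). Inflammatory mediators were lower without overlap in 3 of 17 (Il1b, Cxcl2 and Nfkbia) and higher in none. Il1b, the cytokine interleukin-1 beta, was at 191 to 553 CPM in the deep columns (median 267) and at 1441, 1209 and 1611 CPM in 3D, 4A and 4B (4.54-fold), with 570 to 1296 CPM in the Olfr2- columns. Tnf and Il6 overlapped, at 10.1 to 162 CPM against 19.4, 220 and 26.7 CPM and at 23.2 to 330 CPM against 80.3, 235 and 8.27 CPM. Cebpb, a transcription factor of the inflammatory response, was at 28.1 to 124 CPM (median 37.4) against 1008, 1681 and 1312 CPM (27.1-fold). Among 12 cell cycle genes tested Top2a and Tpx2 were lower and none was higher without overlap. Of 27 nuclear genes of oxidative phosphorylation, 3 were higher (Ndufc1, Atp5a1 and Atp5b) and 4 lower (Ndufa2, Uqcrh, Cox6a1 and Cox7c), and of 10 cholesterol synthesis genes only Insig1 was without overlap, and was higher. Over all genes tested, 7.09% were higher and 5.14% lower without overlap.

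**Figure D4:**
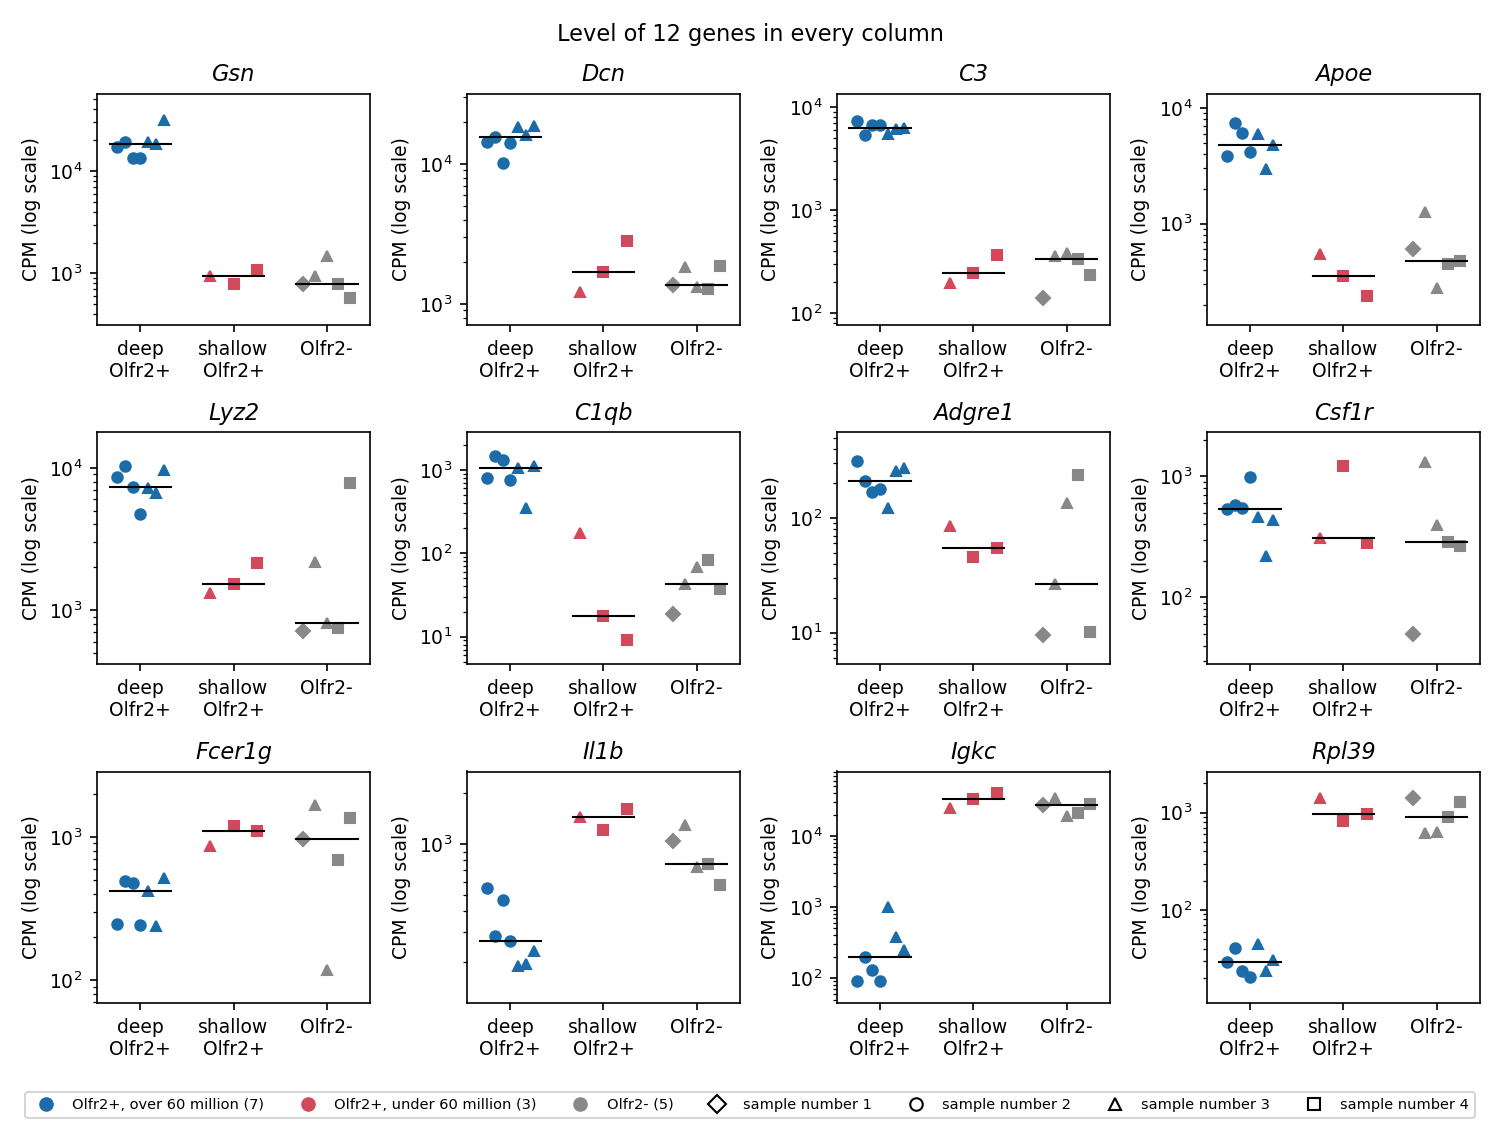
CPM (log scale) of 12 genes in every column, as points shaped by sample number, with a line at the median of the 7 deep Olfr2+, 3 shallow Olfr2+ and 5 Olfr2- columns. Gsn, Dcn, C3, Apoe, Lyz2, C1qb and Adgre1 lie higher in all deep than in all shallow Olfr2+ columns, Fcer1g, Il1b, Igkc and Rpl39 lie lower, and Csf1r overlaps.

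Genes of cytosolic ribosomal proteins were lower in the deep columns. Of 77 tested, 39 were lower without overlap and none higher, with a median log2 fold change of -1.39, and their sum was 1.03 to 1.56% of deep against 3.51, 3.71 and 4.06% of shallow counts. The sum in the Olfr2- columns was 3.02 to 3.56%. Rpl39 was at 20.5 to 44.3 CPM (median 29.4) against 1426, 815 and 972 CPM (35.2-fold). Rplp1, an acidic stalk protein, was at 129 to 222 CPM (median 162) against 2911, 3493 and 3147 CPM (18.5-fold). Their pseudogenes were lower in 11 of 15 tested, and how reads that match both a gene and its pseudogene were assigned is not known. Rplp2, Rpl38, Rps29 and Rps21 were 20.9-fold, 21.4-fold, 23.6-fold and 20.6-fold lower in the means. Genes often used as internal controls did not lie together. Actb was at 4186 to 5913 CPM (median 4742) against 14643, 15976 and 16470 CPM, and Eef1a1 at 2536 to 4113 CPM (median 3048) against 335, 879 and 346 CPM.

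Other transcripts at high levels in the shallow columns came from several kinds of gene. Rn18s-rs5, annotated as 18S ribosomal RNA, was at 262 to 1738 CPM (median 404) against 25259, 35596 and 15189 CPM. Chchd2, which encodes a protein of the mitochondrial intermembrane space, was at 66.2 to 294 CPM (median 218) against 4980, 2295 and 3589 CPM. Btg1, an antiproliferative gene of resting immune cells, was at 164 to 752 CPM (median 479) against 3816, 3749 and 3033 CPM. Lars2, the mitochondrial leucyl-tRNA synthetase gene, was at 1.96 to 40.4 CPM against 281, 1102 and 120 CPM. Of 367 features with gene model names that were tested, 59 were lower and 16 higher without overlap, against 5.14% and 7.09% of all genes tested.

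Mitochondrial transcripts lay on both sides. Both mitochondrial ribosomal RNAs were lower in the deep columns: mt-Rnr2 was at 6629 to 30336 CPM (median 14614) against 91387, 54799 and 70114 CPM, and mt-Rnr1 at 928 to 4164 CPM (median 2676) against 19052, 11530 and 12842 CPM. Of 10 mitochondrial protein genes tested, 4 were higher without overlap and 5 lower, with a median log2 fold change of -0.44. The sum over all 13 such genes was higher in the deep columns, at 1.77 to 2.88% against 0.850 to 1.17%. mt-Cytb was at 6967 to 15333 CPM (median 9616) against 2555, 1653 and 1255 CPM, and mt-Co1 at 4346 to 6792 CPM (median 6012) against 1091, 1021 and 1169 CPM. mt-Nd2 was at 574 to 1869 CPM (median 1039) against 3593, 2252 and 2095 CPM. mt-Co2 and mt-Atp6 had under 4 CPM in every deep and 11.3 to 20.8 CPM in every shallow column, and reads that also match nuclear copies of mitochondrial sequence make the values of these genes uncertain. Malat1, a nuclear noncoding RNA, was at 2127 to 4513 CPM (median 3482) against 12557, 7424 and 10338 CPM, and Neat1, another, overlapped (847 to 2805 CPM against 1695, 1353 and 2122 CPM).

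Length and base composition of transcripts, which the division did not use directly, moved with the fold changes of single genes. Of 8520 tested protein-coding genes, 8494 (99.7%) were used. Mitochondrially encoded genes and genes without a coding transcript in the annotation were left out. The median log2 fold change was -1.85 for the 30 genes under 500 nt, 0.58 from 500 to 1000 nt, 1.09 from 1000 to 2000 nt and 0.10 above 6000 nt. Without ribosomal protein genes it was -1.40 in the 21 remaining genes under 500 nt. By GC content the median log2 fold change went from -0.26 below 40% (396 genes) through 0.59 at 45 to 50% to 1.48 at 60% and above (319 genes). The same order by GC held within transcripts of 1000 to 3000 nt (0.46 below 45%, 0.97 at 45 to 52% and 1.40 above 52%). Spearman correlations over 8494 genes were weak, with rho of -0.10 for length and 0.18 for GC content. The median GC content was 50.6% for fibroblast markers, 53.7% for matrix genes and 52.2% for macrophage identity genes, whose median log2 fold changes were 3.37, 4.24 and 0.71. The part of length and GC content in the gene differences was not tested.

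**Figure D5:**
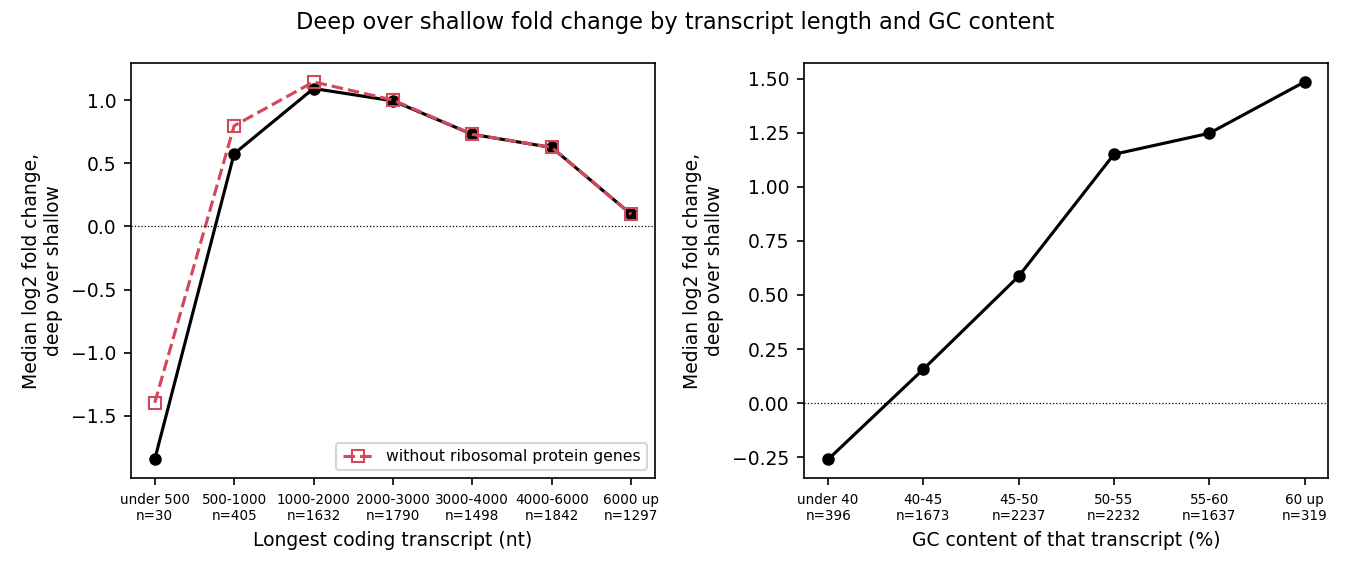
Median log2 fold change of deep over shallow columns for tested protein-coding genes other than mitochondrially encoded ones. Genes are binned by the length of the longest coding transcript (left, in nt) and by its GC content (right, in percent). The number of genes stands under each bin, and open squares leave out ribosomal protein genes. The median is lowest under 500 nt (-1.85), highest at 1000 to 2000 nt (1.09), and goes from -0.26 below 40% GC to 1.48 at 60% and above.

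Sample number 3 was the only number on both sides. The fibroblast sum was 53297, 52897 and 64123 CPM in 3A, 3B and 3C and 3569 CPM in 3D, a 15.9-fold difference, and between samples 2 and 4 it was 9.52-fold. The ribosomal protein sum was 2.93-fold higher in 3D than in the mean of 3A to 3C, and 2.96-fold higher in sample 4 than in sample 2. The immunoglobulin sum was 15.9-fold higher in 3D (37865 CPM, against 5565, 706 and 856 CPM), or 48.5-fold without 3A, and 178-fold higher in sample 4 than in sample 2. Each of 3A, 3B and 3C lay above 3D for 3339 of the 8806 genes (37.9%) and below it for 2064 (23.4%). Nothing is read from these counts, since 1 column is set against 3. With 1 shallow column, these values have no replicate check on the shallow side. Column total and any other difference in the preparation of the sets cannot be told apart in these data, and which of them goes with the gene differences was not tested.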

How the data were processed

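Low-input RNA-seq was made from sorted aortic macrophages in 15 columns, 10 labelled Olfr2+ and 5 labelled Olfr2-. The authors deposited a table of raw counts per gene for 47729 features. Among tools, DESeq2 1.34, DRAGEN and STAR 2.7.1 stand in the submitters' processing notes, with GRCm39 as the build. For the counter, its annotation and its strand setting, nothing is given in the sources used here. The labels' protocols give 18 PCR cycles for cDNA and 9 for libraries, and mention no molecular identifiers; reads copied by PCR are counted several times, and limits from counts cover counting error only.

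Counts were divided by the column total and expressed as CPM. Features with at least 10 CPM in at least 3 of the 10 Olfr2+ columns were tested (8806): 7871 reached this in deep columns and 3220 in shallow ones. A gene was called without overlap when every deep column lay beyond every shallow column. Log2 fold changes and p-values, with Benjamini-Hochberg adjustment, came from edgeR 4.0.16 (quasi-likelihood, R 4.3.3) on these 10 columns with no scaling beyond totals. A call is an adjusted p under 0.05. Each standard error (SE) was derived as the absolute log2 fold change divided by the square root of the quasi-likelihood F statistic. Fold values are ratios of mean CPM. Alternatives used TMM and RLE factors, DESeq2 1.42.0, limma-voom (limma 3.58.1), other filters, sums per sample number, a block, and columns left out. No column pair had counts alike within sampling noise. Genes expected at a common depth are expectations over random subsets of reads.

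The division of columns and the gene lists were chosen with earlier results of these data known. Named genes were those with the largest CPM difference or log2 fold change among genes without overlap, those with the highest means, the most abundant members of each list and members without overlap; other list genes given as contrasts, such as Lyve1, Ifit1 and Pdgfra, were chosen after their values were seen. After a first look, transcript length was redefined from the median over transcripts to the longest protein-coding transcript, immunoglobulin genes were restricted to immunoglobulin biotypes, and clone names were added to the gene models. Lengths, biotypes and GC content came from GENCODE M21, where 98.9% of identifiers matched; no coordinates are given, since its build differs from the notes'.

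The fit was tested on simulated data for the same division, with 8806 genes and 50 altered per size. At a log2 size of 2 it recovered 3, at 3 it recovered 10, at 5 it recovered 30 and at 7 it recovered 45, and it called 0 of 8606 unaltered genes. These sizes were set after a first run recovered few. The simulated columns were drawn independently, with no effect of sample number and no repeats of a sample. The 0 calls therefore do not give the rate of false calls in these data.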

Additional observations from a re-analysis of the deposited data

Results flagged for a closer look

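Of 92 values looked at over the 7 deep columns, 15 had a single column whose gap to the nearest other column was large against the whole range. The rule was Dixon's criterion at 95%, which independent, normally distributed values meet by chance in about 1 of 20 cases. The 92 values include sums beside their own members, and normality was not checked, so 15 of 92 is not read against that rate. In column 3A, immunoglobulin genes summed to 5565 CPM against 242 to 856 CPM in the other 6 deep columns. Its Igkc (997 CPM), Ighm (4342 CPM) and Jchain (156 CPM) were also high, and all 4 stayed below every shallow column. In column 2C the adventitial progenitor sum was 7339 CPM against 3309 to 4757 CPM elsewhere, Aebp1 2772 CPM, Sfrp2 2726 CPM, Rps14 1312 CPM and the housekeeping sum 16322.5 CPM, all high, and mt-Co1 4346 CPM, low against 5940 to 6792 CPM.

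Column 3B stood apart for sums that were low elsewhere. Endothelial markers summed to 769.98 CPM against 1.93 to 108 CPM in the other deep columns, adipocyte markers to 122 CPM against 0.384 to 33.4 CPM, and mast cell markers to 1.23 CPM against 0.200 to 0.488 CPM. Gsn was at 31180 CPM in 3C against 13304 to 19038 CPM, and Cebpb at 124 CPM in 2A against 28.1 to 47.6 CPM.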

How the results depend on the processing

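The 510 higher and 245 lower edgeR calls became 166 higher with RLE factors, 1480 and 700 with DESeq2, 20 and 156 with limma-voom, and 1292 and 11224 with no filter. They were 287 and 85 with counts summed per sample number, 276 and 139 without 3C and 3D, and 240 and 132 without sample number 3. Leaving out single columns gave 313 to 658 higher and 154 to 293 lower calls. The genes without overlap (624 higher and 453 lower) numbered 5529 lower with no filter, 756 lower without 3C and 3D, and 1088 and 1001 without sample number 3. Leaving out single columns gave 645 to 924 higher and 497 to 693 lower, a count that cannot fall when columns are removed from a fixed set of genes. With TMM factors 509 of the 624 and 412 of the 453 genes remained without overlap, and with RLE factors 439 and 311.

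The replicate block, with sample number as the block, gave 119 higher and 44 lower calls. It rests on number 3 alone, the only number on both sides, so whether numbers pair the columns cannot be checked over several pairs.

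The log2 ratio of fibroblast sums was 3.49, with 3.24 under TMM factors, 3.25 without sample number 3 and 3.33 to 3.71 without single columns. For ribosomal proteins it was -1.57, with -1.78 under TMM factors and -1.79 over the counts of other genes. For immunoglobulin genes it was -5.37, with -7.48 without sample number 3. For macrophage identity genes it was 0.73, with 0.48 under TMM factors and 0.52 over the counts of other genes. Without single columns this ratio ranged from 0.62 to 0.92. Over 37 lists and their alternatives, 532 ratios moved by less than the spread between columns and 23 by more. The endothelial ratio of 1.77 became -0.19 without 3B alone and -0.69 without sample number 3, which holds 3B. The change without 3B is among the 532, since the spread of this list was 2.36. Of 49 named genes, H2-Aa changed sign, from 0.07 to -0.14 with TMM factors, -0.11 without 3D, -0.14 without 3C and 3D and -0.092 without sample number 3. Without single columns it ranged from -0.11 to 0.22. Apart from H2-Aa and Fcgr1, these named genes had no overlap between the sides, so leaving out columns could not change their sign. Calls were lost for 11 named genes with RLE factors and 8 with DESeq2, which gave no adjusted p for 1 further gene. The rho of transcript length became -0.049 with the median over transcripts, an alternative chosen after seeing the data. The shallow side holds 3 columns from 2 sample numbers, so its spread rests on few libraries.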
